A study of Homo sapiens with 9 samples.

Results

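The genes described here encode the machinery that brings new proteins into the endoplasmic reticulum (ER), cuts off their signal peptides, attaches N-glycans and folds them. They were chosen by name, as subunits of the SEC61 translocon with SEC62 and SEC63, the translocon-associated protein (TRAP) complex, signal peptidase, the signal recognition particle (SRP) and its receptor, oligosaccharyltransferase, the lectin chaperones, 5 protein disulfide isomerases and the KDEL receptors. Of the 38 genes listed, 36 were measured, by 86 of the 54,675 probe sets of the array, and SEC61G and KDELR2 were not analysed here. SRP subunits are cytosolic, and the other members reside in or near the ER. SRP recognises a signal peptide as it leaves the ribosome and docks on its receptor, and the chain then passes through the SEC61 channel. Signal peptidase and oligosaccharyltransferase act on the chain as it enters, and chaperones and disulfide isomerases fold it inside. Stem cells use this route for their receptors, adhesion proteins and matrix.

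The RNA came from extracellular vesicles released by cells of H9, a long-established human embryonic stem cell (hESC) line, grown without serum or feeder cells in mTeSR1 medium on Matrigel. Cells at 80% confluence conditioned the medium for 24 hours. Microvesicles (MVs) were the pellet of a spin at 16,500 g for 1 hour, after clearing spins at 300 g (200 g in the description of the MVs samples) and 2,800 g. Exosomes (EXOs) were pelleted from what remained at 120,000 g for 2 hours. Non-fractionated vesicles (hESEVs) were, by the labels, pelleted at 120,000 g for 2 hours straight after a spin at 300 g, whereas the study's methods describe harder spins for them. Each group had 3 arrays of the Affymetrix HG-U133 Plus 2.0 type, from 3 biological samples by the study's methods, and no sample was treated. All groups were pellets of 1 cell line, with no cell RNA beside them. A pellet holds many vesicles, so that more vesicles with an mRNA and more of it per vesicle cannot be told apart.

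The values are MAS5 signals, a linear intensity per probe set, and each array is scaled to the same trimmed mean, so that a difference between groups is relative to the rest of the array. The array medians of MVs were 358 to 365, those of EXOs 422 to 430 and those of hESEVs 415 to 421. Replicate arrays correlated with r from 0.854 to 0.862 for MVs, 0.782 to 0.785 for EXOs and 0.809 to 0.819 for hESEVs. These were taken on the log2 scale across 19,775 genes, each by its brightest probe set. The label of the cells was checked on markers of hESCs (such as SOX2, NANOG and LIN28A). Of 14 listed, 12 were measured, and their summed signal per array was 76,666 to 79,479 for MVs, 15,025 to 17,837 for EXOs and 22,520 to 25,103 for hESEVs. Genes restricted to adult tissues, 83 measured of 98 listed, summed to between 33,932 and 37,621, 48,511 and 50,629, and 47,244 and 48,771 in the same order, and their 90th percentile served as a background level: a signal of 868 for MVs, of 1,252 for EXOs and of 1,027 for hESEVs. Of the 12 hESC markers, 11 had a mean above it in MVs, 6 in EXOs and 10 in hESEVs. The control probe sets at the 3′ end of GAPDH were brighter than those at the 5′ end by 1.53 on the log2 scale in MVs, 0.67 in EXOs and 1.04 in hESEVs, and those of ACTB by 4.57, 2.61 and 3.24. MVs lay above EXOs on every array for both genes (two-sided exact permutation test, p = 0.1, which is as low as 3 against 3 arrays can go). By the study's electrophoresis, the total RNA of MVs was also much longer than that of EXOs, in which only small RNAs were plentiful. The part of these differences in the results that follow was not tested.

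Promoters of 32 of the 38 genes were found in a table of human promoters from RefSeq (GRCh38.p14). The ER stress response element is the site through which the transcription factor ATF6 raises ER chaperones when unfolded proteins accumulate. Its letters, CCAAT and CCACG with 9 bases between them, on either strand, were found within the 250 bases before the start of 3 members, CANX, CALR and PDIA6, and in 0.074% of the 35,116 promoters searched. These 3 are shown because they were the members with the element. All 3 were called higher in MVs, as were 69.4% of the measured members and 11.6% of all genes. Capitals mark the CCAAT and CCACG ends of the element or their reverse complements, which do not overlap another motif searched, and each sequence ends at the base before a start. CANX lies at chr5:179698679-179698928 on the plus strand, CALR at chr19:12938359-12938608 on the plus strand and PDIA6 at chr2:10812786-10813035 on the minus strand.
CANX: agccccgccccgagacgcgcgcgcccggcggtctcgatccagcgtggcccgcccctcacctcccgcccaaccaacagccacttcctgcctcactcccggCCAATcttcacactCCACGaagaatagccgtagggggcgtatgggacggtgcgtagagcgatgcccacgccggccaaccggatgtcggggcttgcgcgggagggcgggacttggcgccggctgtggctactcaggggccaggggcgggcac
CALR: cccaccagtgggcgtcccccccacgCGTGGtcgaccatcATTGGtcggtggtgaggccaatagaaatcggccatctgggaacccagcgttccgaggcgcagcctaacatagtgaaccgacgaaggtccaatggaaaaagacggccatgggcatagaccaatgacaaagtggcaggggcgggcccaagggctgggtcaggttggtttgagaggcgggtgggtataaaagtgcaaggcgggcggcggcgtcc
PDIA6: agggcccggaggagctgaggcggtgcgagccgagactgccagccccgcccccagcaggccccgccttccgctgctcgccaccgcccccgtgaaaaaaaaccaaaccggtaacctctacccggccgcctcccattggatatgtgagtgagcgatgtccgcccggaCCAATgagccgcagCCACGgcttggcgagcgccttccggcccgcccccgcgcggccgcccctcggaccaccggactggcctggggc
The element began 151 bases before this start of CANX, 225 before that of CALR, where it ran on the opposite strand, and 86 before that of PDIA6. The core of another element of the unfolded protein response, TGACGTGG, was found on either strand before 4 members (SSR3, SEC62, SRP19 and SSR4) and in 0.612% of all promoters. SSR3, SRP19 and SSR4 were called higher in MVs and SEC62 was not. It also stood before 10 of the other ER genes listed further on, of which 9 were measured, 3 were called higher in MVs, 1 (KDELR3) was higher in EXOs and 5 were not called. Of all the other ER genes measured, 35.6% were called higher in MVs. A match is a run of letters and not a measured site, and a link between an element and the calls was not tested.

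The first comparison asked how the ER machinery's mRNAs were divided between the fractions. Of the 36 genes, 25 were higher in MVs than in EXOs, 0 were higher in EXOs and 11 passed in neither direction, where a gene was called at a limma adjusted p under 0.05 and at least a 2-fold difference. Among all 19,775 genes, 11.6% were called higher in MVs and 2.77% higher in EXOs. The median log2 difference, MVs minus EXOs, was 1.68 over the members, of which 32 were positive, against -0.23 over all genes. Folds of the 25 ran from 2.31 for SPCS3, a subunit of signal peptidase, to 20.3 for RPN1, a subunit of oligosaccharyltransferase. Every MVs array lay above every EXOs array for 29 members (18.8% of all genes), and the reverse held for 3, SEC62, SSR1 and SRPRB (22.6% of all genes). Negative differences at an unadjusted p under 0.05 were found for 2 members, SEC62 and SSR1, by limma and by the methods' t-test alike. Of the 36 genes, 30 had a mean above the background level in MVs, 10 in EXOs and 19 in hESEVs. P4HB entered these counts with the probe set of the fit of all arrays (MVs mean 655). Its MVs mean with the probe set of the first comparison was 1,038, above the background level. For 19 of the 25 called genes the EXOs mean lay at or under that level, so that the size of their fold is uncertain. In the same fit, 11 of the 12 hESC markers were higher in MVs, with a median of 2.09, and of the 83 tissue-restricted genes 1 was higher in MVs and 1 in EXOs, with a median of -0.55. The count of 25 fell to 16 with the methods' t-test (unpaired) and the same adjustment, and without the probe sets shared between transcripts it was 15 of 29 measured genes, with 1 gene, SEC63, higher in EXOs. When the signals of all probe sets of a gene were averaged, CANX (0.22), PDIA3 (0.88), SEC61A1 (0.78), SEC61B (0.72), SPCS3 (0.45) and SSR3 (0.60) fell under 2-fold.

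**Figure D1:**
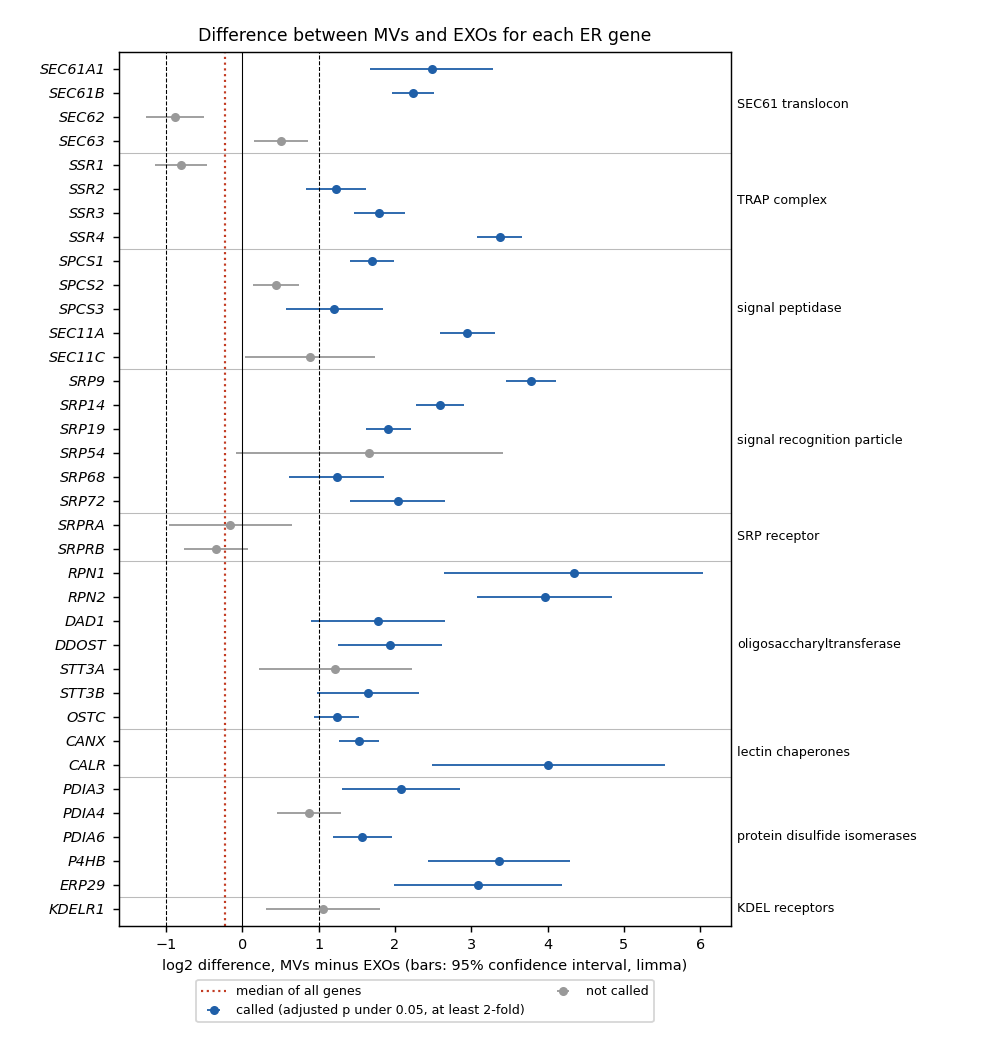
Log2 difference between MVs and EXOs for each of the 36 genes (x axis, log2 of MAS5 signal, MVs minus EXOs) with its 95% confidence interval from limma, grouped by complex (right). Blue points are the 25 called genes, grey points the 11 others, dashed lines mark 2-fold, and the dotted line is the median of all genes at -0.23.

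The signal recognition particle had 5 of 6 subunits called higher in MVs, with a median log2 difference of 1.97. SRP9 and SRP14 form the part of the particle that slows the ribosome. SRP9 gave signals of 19,802, 14,478 and 18,772 on the MVs arrays, 1,125, 1,316 and 1,406 on the EXOs arrays and 4,326, 2,891 and 2,993 on the hESEVs arrays. The 3 MVs arrays lay far above the others, and hESEVs lay between MVs and EXOs. The log2 difference was 3.78 (95% confidence interval 3.45 to 4.11, adjusted p = 4.9e-07). Signals of SRP14 were 13,860.3, 11,723 and 10,783 in MVs, 2,220.5, 2,129 and 1,704 in EXOs and 4,991, 4,849 and 4,246 in hESEVs. SRP14 showed the same order of the groups without overlap. MVs held 6.01 times the EXOs signal of SRP14, a log2 difference of 2.59 (95% confidence interval 2.27 to 2.90, adjusted p = 3.5e-06). SRP19 helps the particle assemble, and SRP68 and SRP72 bind each other on its RNA. SRP19 had a mean signal of 3,659 ± 334 (SD, n = 3) for MVs and 973 ± 95.3 for EXOs, a log2 difference of 1.91 (limma adjusted p = 1.4e-05). The mean MVs signal of SRP72 was 2,791 ± 165 (SD, n = 3) against 721 ± 305 in EXOs, with a log2 difference of 2.03 (limma adjusted p = 0.0010). SRP68 had a mean signal of 1,555 ± 136 (SD, n = 3) for MVs and 689.6 ± 245 for EXOs, a log2 difference of 1.24 (limma adjusted p = 0.014). SRP68 was no longer called without MVs replicate 1, MVs replicate 3 or EXOs replicate 1 (log2 differences from 0.94 to 1.22). SRP54, the GTPase that holds the signal peptide, did not pass. In MVs SRP54 gave 908, 910.1 and 747, in EXOs 397, 705 and 69.6 and in hESEVs 587, 499.8 and 479.7. The EXOs arrays spread widely here, and the log2 difference was 1.66 (95% confidence interval -0.09 to 3.41, adjusted p = 0.16).

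Neither subunit of the SRP receptor was called. SRPRA, the GTPase that meets SRP54, gave MVs signals from 365 to 631 and EXOs signals from 433 to 543, which overlapped, and the log2 difference was -0.16 (95% confidence interval -0.96 to 0.65, adjusted p = 0.78). SRPRB, its membrane anchor, gave 664 to 869 in MVs and 956 to 1,035 in EXOs. Here every EXOs array was above every MVs array, but the log2 difference was -0.35 (95% confidence interval -0.77 to 0.07, adjusted p = 0.22). The mean signal of SRPRA and of SRPRB was under the background level in all 3 groups.

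Of the translocon genes, both measured SEC61 subunits were higher in MVs and both assisting proteins were not. SEC61A1 forms the channel. For SEC61A1 the MVs signals were 2,331, 1,482 and 1,425, those of EXOs 256, 225 and 491 and those of hESEVs 902, 735 and 360.3. The MVs arrays were above all others, and hESEVs replicate 3 lay inside the EXOs range. MVs exceeded EXOs by 2.48 on the log2 scale (95% confidence interval 1.68 to 3.28, adjusted p = 0.0014). SEC61B is the small tail-anchored subunit beside the channel. SEC61B gave signals of 6,637, 6,914 and 6,431 on the MVs arrays, 1,655, 1,265 and 1,351 on the EXOs arrays and 3,239, 2,511 and 3,309 on the hESEVs arrays. Its replicate arrays lay close together and the groups were apart. The log2 difference was 2.24 (95% confidence interval 1.96 to 2.51, adjusted p = 3.9e-06). The other probe sets of SEC61A1 and SEC61B were brighter in EXOs, with log2 differences of -0.92 and -0.81, and were not called. Their means were under the background levels of MVs and of EXOs. SEC62 and SEC63 help proteins that enter after translation, SEC63 through a domain that recruits the chaperone BiP. Signals of SEC62 were 701, 665 and 737 in MVs, 1,345, 1,168 and 1,373 in EXOs and 1,088, 1,217 and 1,044 in hESEVs. SEC62 was thus dimmest in MVs. Its difference was under 2-fold, and the log2 difference was -0.88 (95% confidence interval -1.26 to -0.51, adjusted p = 0.0062). In MVs SEC63 gave 1,089, 1,253 and 1,180.4, in EXOs 819, 848 and 816 and in hESEVs 1,164, 1,067 and 1,136. SEC63 was brighter in MVs than in EXOs on every array, and the log2 difference was 0.50 (95% confidence interval 0.15 to 0.86, adjusted p = 0.053). With unshared probe sets alone, SEC63 was represented by another probe set and was higher in EXOs, with a log2 difference of -1.15 (adjusted p = 0.0496). The means of that probe set, 349 in MVs and 753 in EXOs, were under the background levels of these groups.

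The TRAP complex sits beside the channel and helps some signal peptides open it. Of its 4 subunits, SSR2, SSR3 and SSR4 were higher in MVs, and SSR1 was not. For SSR4 the MVs signals were 6,965, 5,731 and 5,419, those of EXOs 549, 602 and 591 and those of hESEVs 2,191, 1,691 and 1,789. Signals of MVs and EXOs were about an order of magnitude apart, and hESEVs lay between them. MVs held 10.3 times the EXOs signal of SSR4, a log2 difference of 3.37 (95% confidence interval 3.07 to 3.67, adjusted p = 5.7e-07). SSR3 gave signals of 3,832, 3,882 and 4,796 on the MVs arrays, 1,272, 1,015 and 1,318 on the EXOs arrays and 1,940.5, 1,905 and 1,739 on the hESEVs arrays. The groups were in the same order. MVs exceeded EXOs by 1.80 on the log2 scale (95% confidence interval 1.46 to 2.13, adjusted p = 4.7e-05). The mean MVs signal of SSR2 was 3,084 ± 111 (SD, n = 3) against 1,343 ± 307 in EXOs, with a log2 difference of 1.23 (limma adjusted p = 0.0013). Signals of SSR1 were 938, 968 and 852 in MVs, 1,748, 1,644 and 1,431 in EXOs and 1,314, 1,760.2 and 1,213 in hESEVs. SSR1 was dimmer in MVs than in EXOs on every array, and the hESEVs arrays reached across the EXOs range. Its difference was under 2-fold, and the log2 difference was -0.80 (95% confidence interval -1.14 to -0.47, adjusted p = 0.0059). With quantile normalization it passed as higher in EXOs, with a log2 difference of -1.10, and SSR2 was not called. With unshared probe sets alone, SSR3 gave a log2 difference of -0.17 (adjusted p = 0.92).

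In signal peptidase, the catalytic subunit SEC11A and the accessory subunits SPCS1 and SPCS3 were higher in MVs, while SPCS2 and the other catalytic subunit SEC11C did not pass. In MVs SEC11A gave 8,964, 8,974 and 8,836, in EXOs 1,460.5, 925 and 1,142 and in hESEVs 2,912, 2,534 and 2,469. The 3 MVs arrays lay close together, and none of the other arrays came near them. The log2 difference was 2.95 (95% confidence interval 2.59 to 3.31, adjusted p = 3.9e-06). With quantile normalization the log2 difference of SEC11A was 0.94, under 2-fold. For SPCS1 the MVs signals were 3,533, 3,560.0 and 3,407, those of EXOs 1,030.0, 1,254 and 979 and those of hESEVs 1,568, 1,514 and 1,291. The 3 groups did not overlap, with hESEVs close to EXOs. MVs held 3.24 times the EXOs signal of SPCS1, a log2 difference of 1.69 (95% confidence interval 1.40 to 1.98, adjusted p = 2.9e-05). For SPCS3, MVs signals ran from 794 to 1,395 and EXOs signals from 385 to 527, and the log2 difference was 1.21 (95% confidence interval 0.57 to 1.84, adjusted p = 0.017). That call was lost without MVs replicate 1 or MVs replicate 2 (log2 differences 0.99 and 1.23). It came from a probe set whose name marks sharing between transcripts or genes. The other probe sets of SPCS3 gave log2 differences of 0.17 and -0.039 and were not called. SEC11C gave 989.8 to 1,221 in MVs and 339 to 1,006 in EXOs, which overlapped, and the log2 difference was 0.89 (95% confidence interval 0.04 to 1.73, adjusted p = 0.13). It passed without EXOs replicate 3, with a log2 difference of 1.24 (adjusted p = 0.045). Over the other settings the log2 difference of SEC11C went down to -0.42. The other probe set of SEC11C was brighter in EXOs (476 to 618) than in MVs (58.2 to 317) on every array. Its log2 difference was -1.73, and it was not called, with signals under the background levels of both groups. For SPCS2, the log2 difference was 0.45 (95% confidence interval 0.14 to 0.75, adjusted p = 0.047), under 2-fold.

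Oligosaccharyltransferase transfers the preassembled glycan to asparagine residues, and 6 of its 7 listed subunits were higher in MVs. RPN1 and RPN2 (ribophorins) were named for their nearness to bound ribosomes. RPN1 gave signals of 1,346, 1,559.9 and 1,563 on the MVs arrays, 45.4, 34.3 and 253 on the EXOs arrays and 394, 654 and 477 on the hESEVs arrays. The EXOs signals of RPN1 were far under the background level, and 2 of them were close to the floor of 32 set for the test. With a floor of 100 the log2 difference of RPN1 was 3.45. MVs exceeded EXOs by 4.34 on the log2 scale (95% confidence interval 2.64 to 6.04, adjusted p = 0.0041). Signals of RPN2 were 5,314, 6,152 and 5,154 in MVs, 173, 522 and 494 in EXOs and 1,248, 1,315 and 1,322 in hESEVs. RPN2 was bright in MVs, and its EXOs signals were under the background level. The log2 difference was 3.96 (95% confidence interval 3.07 to 4.85, adjusted p = 0.00016). In MVs DDOST gave 2,574, 2,698 and 3,165, in EXOs 1,025, 438 and 880.5 and in hESEVs 838, 982 and 764. DDOST, a structural subunit, was separated between MVs and EXOs, while hESEVs and EXOs overlapped. MVs held 3.82 times the EXOs signal of DDOST, a log2 difference of 1.93 (95% confidence interval 1.25 to 2.61, adjusted p = 0.0023). DAD1 had a mean signal of 1,359.6 ± 75.4 (SD, n = 3) for MVs and 439 ± 237 for EXOs, a log2 difference of 1.78 (limma adjusted p = 0.013). DAD1, the small subunit whose loss was first seen as cell death, lost its call without MVs replicate 2 (adjusted p = 0.055). STT3A and STT3B are alternative catalytic subunits, the former working at the translocon and the latter on sites that were skipped. The mean MVs signal of STT3B was 1,499 ± 174 (SD, n = 3) against 499 ± 169.9 in EXOs, with a log2 difference of 1.65 (limma adjusted p = 0.0050). For STT3A the MVs signals were 871, 519 and 892, those of EXOs 536, 293 and 205 and those of hESEVs 341, 599 and 507. The MVs and EXOs arrays of STT3A overlapped, and the log2 difference was 1.22 (95% confidence interval 0.22 to 2.22, adjusted p = 0.086). It passed without EXOs replicate 1, with a log2 difference of 1.59 (adjusted p = 0.042). A difference between STT3A and STT3B was not tested. OSTC had a mean signal of 3,132 ± 123 (SD, n = 3) for MVs and 1,337 ± 171 for EXOs, a log2 difference of 1.24 (limma adjusted p = 0.00021). OSTC, which links the enzyme to the translocon, fell to a log2 difference of 0.68 with quantile normalization.

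Both lectin chaperones, which hold glycoproteins through their trimmed glycans, were higher in MVs. Calnexin (CANX) is anchored in the membrane. CANX gave signals of 5,648, 5,919.6 and 6,502 on the MVs arrays, 1,861, 2,332 and 2,084 on the EXOs arrays and 3,113, 2,414 and 2,485 on the hESEVs arrays. Its EXOs signals were also above the background level, so that both ends of the fold were measured. MVs exceeded EXOs by 1.53 on the log2 scale (95% confidence interval 1.27 to 1.79, adjusted p = 2.8e-05). Calreticulin (CALR) is the soluble one. Signals of CALR were 3,465, 3,774 and 2,736 in MVs, 61.6, 276 and 503 in EXOs and 1,171, 493 and 707 in hESEVs. CALR was bright in MVs and spread widely among the EXOs arrays. The log2 difference was 4.01 (95% confidence interval 2.49 to 5.53, adjusted p = 0.0035). Both calls came from probe sets shared between transcripts. With unshared probe sets alone CANX gave -0.29 (adjusted p = 0.62) and CALR 0.78 (adjusted p = 0.40), the latter from a probe set near the floor. With quantile normalization the log2 difference of CANX was 0.30.

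Of the protein disulfide isomerases, which form and rearrange disulfide bonds, 4 of 5 were higher in MVs. P4HB is the founding member and also a subunit of collagen prolyl hydroxylase. In MVs P4HB gave 1,208, 909 and 998, in EXOs 108, 83.5 and 112 and in hESEVs 114, 322 and 88.2. MVs were slightly above their background level, and EXOs and hESEVs were far under theirs. MVs held 10.3 times the EXOs signal of P4HB, a log2 difference of 3.36 (95% confidence interval 2.43 to 4.29, adjusted p = 0.00056). Another probe set stood for P4HB when all 9 arrays entered the fit, and P4HB was not called without MVs replicate 1 (0.68) or EXOs replicate 1 (1.39), where the choice of probe set changed as well. ERP29 belongs to the family but lacks the redox-active pair of cysteines. For ERP29 the MVs signals were 1,620.2, 2,026 and 1,681, those of EXOs 241, 388 and 95.9 and those of hESEVs 1,103, 1,023 and 789. Here hESEVs lay about midway. MVs exceeded EXOs by 3.09 on the log2 scale (95% confidence interval 1.99 to 4.18, adjusted p = 0.0024). PDIA3 works with the lectin chaperones on glycoproteins. PDIA3 gave signals of 1,172, 1,645 and 2,441 on the MVs arrays, 574, 304 and 359 on the EXOs arrays and 629, 227 and 611 on the hESEVs arrays. The MVs arrays lay above both other groups, which overlapped, but the log2 difference of 2.08 (95% confidence interval 1.31 to 2.85, adjusted p = 0.0031) rested on a choice of probe set. Without MVs replicate 3 another probe set represented PDIA3 and gave -0.46 (adjusted p = 0.41). Signals of PDIA6 were 2,280.4, 3,240.2 and 2,898 in MVs, 985, 1,019.5 and 810.2 in EXOs and 827, 1,271 and 993 in hESEVs. PDIA6, which also acts on the stress sensors of the ER, had hESEVs and EXOs signals in 1 range. The log2 difference was 1.57 (95% confidence interval 1.19 to 1.96, adjusted p = 0.00027). PDIA4 missed the fold threshold, and the log2 difference was 0.88 (95% confidence interval 0.46 to 1.29, adjusted p = 0.011). KDELR1 returns escaped ER proteins from the Golgi. In MVs KDELR1 gave 3,797, 3,959 and 2,018, in EXOs 1,449.5, 2,216 and 1,051 and in hESEVs 2,143, 1,435 and 1,867. Its MVs replicate 3 lay inside the EXOs range, and the log2 difference was 1.06 (95% confidence interval 0.31 to 1.80, adjusted p = 0.054). KDELR1 was called in 9 of 20 other settings, among them a fit of all 9 arrays (adjusted p = 0.029), median centring (1.29), and leaving out MVs replicate 3 (1.37) or EXOs replicate 2 (1.34). These values came from a probe set shared between transcripts. The other probe set of KDELR1, which is unshared, gave a log2 difference of -0.26 (limma adjusted p = 0.67) and was not called.

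**Figure D2:**
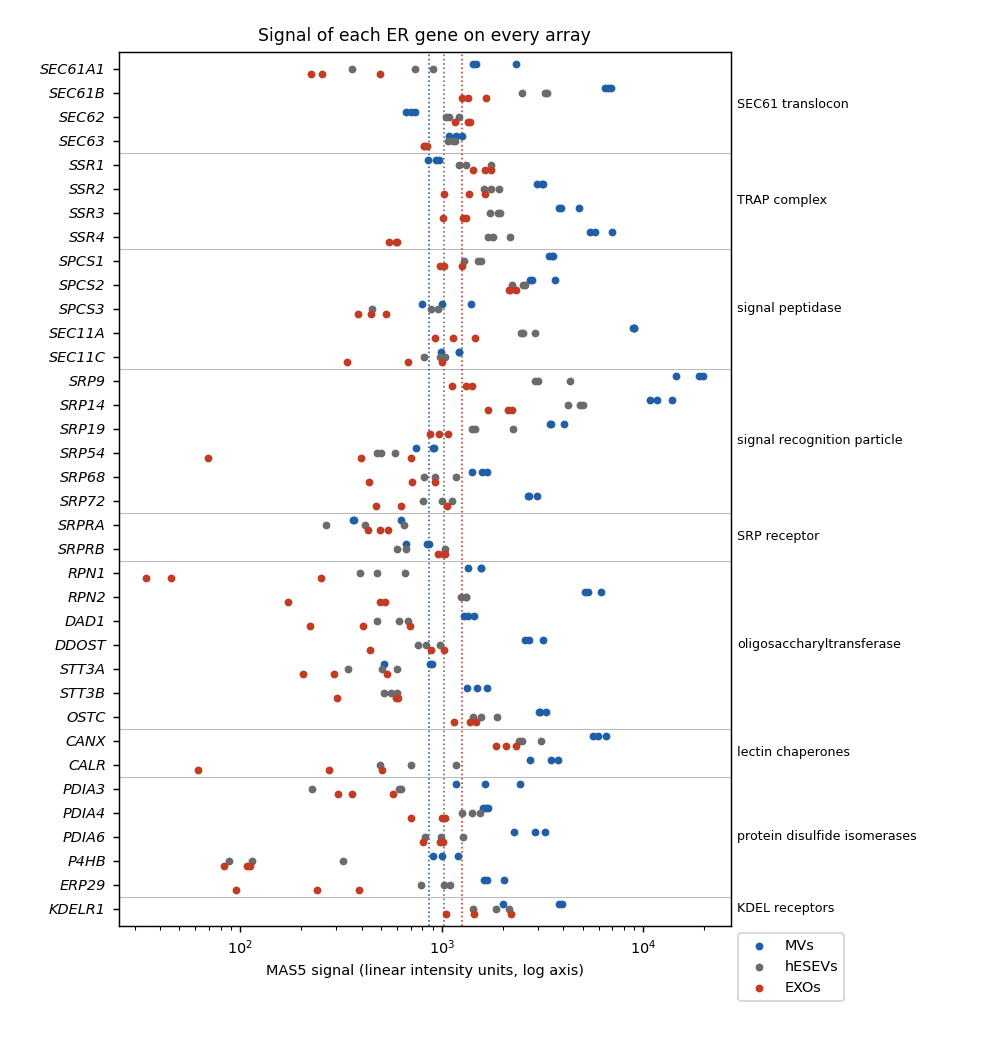
MAS5 signal of each gene (x axis, linear intensity units on a log axis) on the 3 MVs (blue), 3 hESEVs (grey) and 3 EXOs (red) arrays, 1 point per array, grouped by complex. Dotted lines are the background levels of the groups at 868, 1,027 and 1,252. With P4HB by the probe set of the fit of all arrays (MVs mean 655), 30 genes have an MVs mean above theirs and 10 an EXOs mean above theirs. By its probe set in the comparison of MVs with EXOs, P4HB has an MVs mean of 1,038, which is also above.

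The median standard deviation of the members' log2 signals was 0.17 in MVs, 0.32 in EXOs and 0.23 in hESEVs, against 0.33, 0.38 and 0.35 over all genes. Single members spread more widely, with standard deviations of up to 0.54 in MVs, 1.75 in EXOs and 0.84 in hESEVs. Arrays give no counts, and 3 per group limit the precision of every value above.

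The probe sets of 1 gene did not always move together. Of the 86, 36 were called higher in MVs (7.23% of all probe sets were), 1 was higher in EXOs (1.97% of all were) and 49 passed in neither direction. Their median log2 difference was 1.06, against -0.29 over all probe sets. Among the 36 probe sets that stood for their genes the median was 1.68 and 25 were called, and among the 50 others it was 0.24 with 11 higher in MVs and 1 in EXOs. The former were chosen for a high signal, so these are descriptions. Of the 22 genes with more than 1 probe set, 3 (SEC11A, RPN2 and DDOST) had all of them called higher in MVs, 12 had some and 7 had none. Of the 44 probe sets whose names mark sharing between transcripts or genes 21 were called higher in MVs, and of the 42 others 15.

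SEC62 and SSR1, whose representative probe sets were brighter in EXOs, each had probe sets that ran the other way. For SEC62, probe set 208942_s_at gave 1,367, 1,256 and 973 in MVs and 196, 138 and 338 in EXOs, and 208943_s_at gave 932, 931 and 943 in MVs and 509.6, 229.8 and 388 in EXOs. Both were called higher in MVs, with log2 differences of 2.51 (adjusted p = 0.0043) and 1.39 (adjusted p = 0.029). For SSR1, 1 of 6 probe sets, 200891_s_at, was called, with 1,205, 1,744 and 1,312 in MVs and 376, 457 and 349 in EXOs, a log2 difference of 1.84 (adjusted p = 0.0012). SRP72 was the only member with probe sets called in both directions. Probe set 208263_at gave 389, 330.5 and 232 in MVs and 810.5, 754 and 683 in EXOs, a log2 difference of -1.27 (adjusted p = 0.031). It was not called without MVs replicate 2, MVs replicate 3, EXOs replicate 1 or EXOs replicate 3, or with a replicate block. All its MVs and EXOs signals lay under the background levels of these groups. The other called probe sets of SRP72 gave 2.03 and 3.73. For CALR, 212953_x_at and 214315_x_at were called (4.01 and 2.88), and 200935_at, with MVs signals from 23.3 to 162, was not. Which of the probe sets measures the transcript in the vesicles was not tested.

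**Figure D3:**
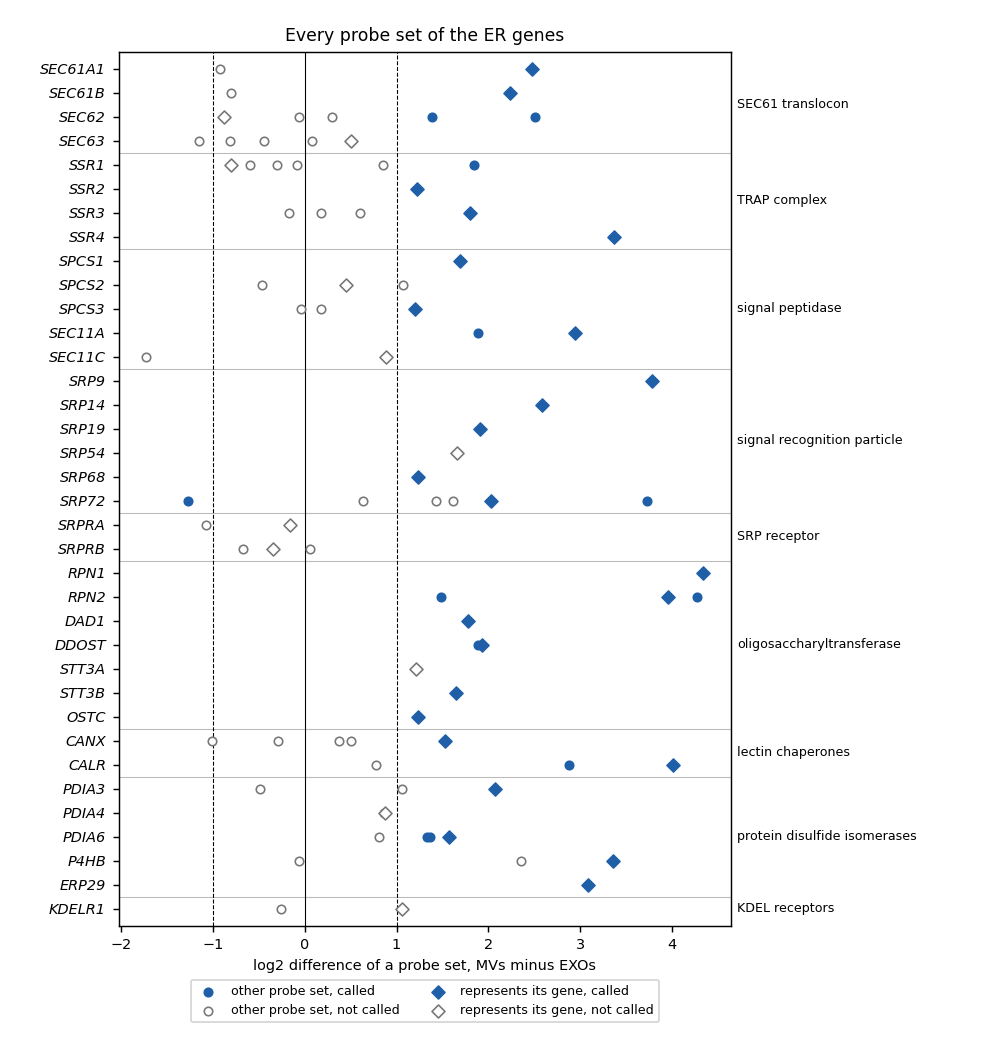
Log2 difference of every probe set of the 36 genes (x axis, MVs minus EXOs). Diamonds represent their gene in the gene-level test and circles are the other probe sets. Filled symbols are called, dashed lines mark 2-fold, and 36 of 86 symbols are filled to the right of the MVs line and 1, of SRP72, to the left of the EXOs line.

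The non-fractionated hESEVs were then set against either fraction, with all 9 arrays fitted together. These comparisons share arrays with each other and with the first. Against MVs, 18 of the 36 genes were lower in hESEVs (7.17% of all genes were) and 0 were higher (1.56% of all were), with a median log2 difference, hESEVs minus MVs, of -1.14 against 0.15 over all genes. Positive differences at an unadjusted p under 0.05 were found for 2 members by limma, SEC62 (0.67) and SSR1 (0.62). Every MVs array was above every hESEVs array for 26 members (17.1% of all genes), and the reverse held for 2 (18.3% of all genes). Called genes were found in every complex but the SRP receptor and the KDEL receptor. They included SRP9, with a log2 difference of -2.39, CALR with -2.15, RPN2 with -2.09, PDIA3 with -1.92, SEC11A with -1.76 and SSR4 with -1.68. The count of 18 fell to 5 with quantile normalization, to 10 with averaged probe sets and to 9 of 29 with unshared ones. CALR, DAD1, DDOST, PDIA3 and SEC61A1 each lost the call when certain single arrays were left out, CALR and DAD1 with any of 7 arrays, SEC61A1 with any of 5, and DDOST and PDIA3 with either of 2. For PDIA3 the log2 difference was then -0.02 without MVs replicate 2 and -0.01 without MVs replicate 3.

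Against EXOs, 8 genes were higher in hESEVs (3.28% of all genes were) and 0 were lower (0.172% of all were, and 0 members at an unadjusted p under 0.05 by limma or the methods' t-test). The median log2 difference, hESEVs minus EXOs, was 0.56, against -0.0010 over all genes, and every hESEVs array was above every EXOs array for 15 members (11.3% of all genes). The reverse held for 0 members (8.01% of all genes). The 8 were RPN1 (2.76), ERP29 (2.21), RPN2 (1.87), SSR4 (1.69), SRP9 (1.39), SRP14 (1.22), SEC11A (1.19) and SEC61B (1.08). The adjusted p of RPN1 was 0.034, and the call was lost when any 1 of 8 arrays was left out, EXOs replicate 3 being the exception (log2 differences from 2.21 to 2.93). With the methods' t-test and the same adjustment 1 of the 8 remained, SSR4, and with unshared probe sets the count was 5.

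**Figure D4:**
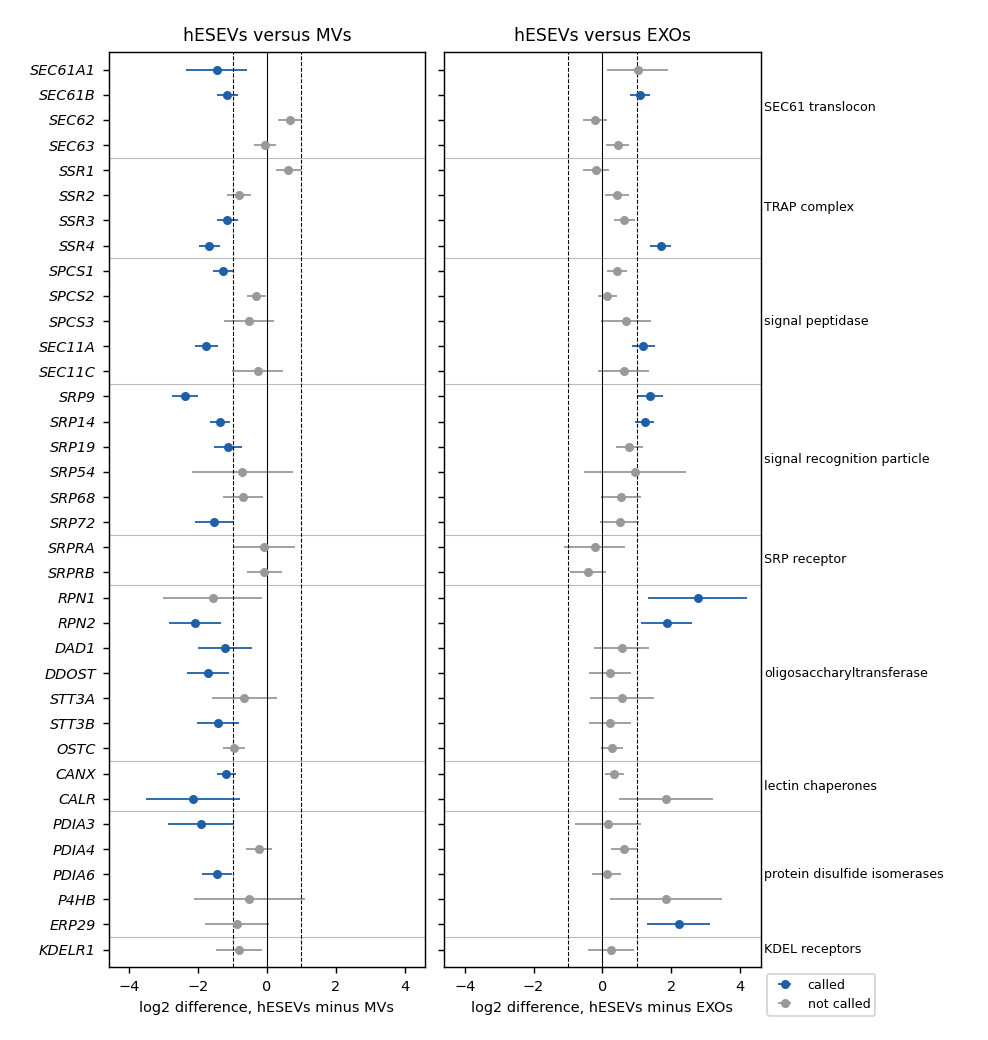
Log2 differences of the 36 genes between hESEVs and MVs (left, hESEVs minus MVs) and between hESEVs and EXOs (right, hESEVs minus EXOs), with 95% confidence intervals from limma. Blue points are called genes, 18 on the left, all negative, and 8 on the right, all positive; dashed lines mark 2-fold.

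The mean log2 signal of hESEVs lay between those of MVs and EXOs for 34 of the 36 genes (94.4%). The exceptions were SRPRA and SRPRB. The same held for 51.7% of all genes. Among genes called higher in MVs it held for 25 of the 25 members (100%) and for 92.5% of all 2,293. The share of these members was thus close to that of all genes higher in MVs. On the linear scale, the 25 genes called higher in MVs had hESEVs a median of 18.9% of the way from EXOs to MVs (quartiles 14.7% and 27.4%). For all 2,293 genes called higher in MVs it was 22.4% (quartiles 13.1% and 33.3%). In 23 of the 25, hESEVs were nearer to EXOs than to MVs. The exceptions were SPCS3 at 51.3% and P4HB at 57.8%, the latter with the probe set of the 9-array fit. In the 6-array fit of all probe sets, that probe set was not called between MVs and EXOs (limma adjusted p = 0.12). With all 9 arrays in the fit P4HB was called higher in MVs. With the probe set that was called in the 6-array fit P4HB lay at 7.86%. With the probe sets of the 6-array fit throughout, a choice made after seeing the data, the median was 17.5% and 24 of the 25 were nearer to EXOs.

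Other genes of the secretory pathway were listed by function, with 135 of 145 measured. Of these, 48 were called higher in MVs and 2 in EXOs, with a median log2 difference of 0.83. The remaining oligosaccharyltransferase subunits had 4 of 5 called higher in MVs, with a median of 3.02. TMEM258 gave 12,574, 11,271 and 10,233 in MVs and 566, 838 and 639 in EXOs. MVs and EXOs were well apart, with a log2 difference of 4.07 (95% confidence interval 3.71 to 4.44, adjusted p = 5.7e-07). KRTCAP2 gave a log2 difference of 3.02 and OST4 one of 3.80. Of the other translocon and insertion factors, 13 of 23 were higher in MVs, with a median of 1.37. They included SERP1, a stress-linked partner of the translocon (3.18), CAMLG, a receptor for tail-anchored proteins (1.77), and BAG6, which hands such proteins on (1.03).

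Enzymes that build the glycan precursor had 4 of 18 called, with a median of 0.47, and enzymes that trim it 1 of 11, with a median of 0.08. The share of the trimming enzymes, 9.09%, was near the 11.6% of all genes. DPM1 (2.07) and DPM3 (4.05), subunits of the enzyme that makes the mannose donor, and ALG13 (1.47) were among the former. GANAB, the catalytic subunit of glucosidase II, was called in the latter (3.30), whereas its partner PRKCSH (0.67) was under 2-fold and EDEM3, which marks misfolded glycoproteins, gave -0.82. Other ER chaperones and foldases had 10 of 26 called higher in MVs, with a median of 0.71. BiP (HSPA5), the main ER chaperone of the HSP70 family, gave 7,931, 8,854 and 8,079 in MVs and 615, 883 and 978 in EXOs. The groups lay far apart, with a log2 difference of 3.35 (95% confidence interval 2.96 to 3.75, adjusted p = 2.8e-06). MANF (3.96) and TMX1 (1.67) were also higher. HSP90B1, the HSP90 of the ER, gave 904, 679.5 and 798 in MVs and 704, 1,279.7 and 1,316 in EXOs, which overlapped, with a log2 difference of -0.42 (95% confidence interval -1.05 to 0.20, adjusted p = 0.30). The ER stress response element stood before 7 of the other ER genes with a promoter in the table, and 3 of these (HSPA5, SERP1 and CRELD2, the last named after its value was seen) were called higher in MVs while 4, HSP90B1 among them, were not called. Among all the other ER genes measured, 35.6% were called higher in MVs.

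Degradation of ER proteins had 3 of 12 genes called higher in MVs, with a median of 0.36: UFD1 (1.14), UBE2G2 (2.17) and FAF2 (1.92). The unfolded protein response had 1 of 11, with a median of 0.01, which was also 9.09% and near the share of all genes. That gene was the transcription factor ATF4, which gave 10,193, 9,255 and 12,012 in MVs and 1,468, 1,411 and 1,474 in EXOs, a log2 difference of 2.85. ATF6 (-0.70, adjusted p = 0.018) was under 2-fold and ERN1 (-0.61, adjusted p = 0.051) did not pass. COPII and COPI coats with their cargo receptors, which carry proteins between the ER and the Golgi, had 12 of 29 called higher in MVs and 2 in EXOs, with a median of 0.99. SEC13, a coat subunit (4.34), TMED2 (2.24) and LMAN1 (1.19) were higher in MVs. The 2 higher in EXOs were KDELR3, a relative of KDELR1, which gave 624, 1,008 and 885 in MVs and 2,016, 1,808 and 1,665 in EXOs with a log2 difference of -1.15 (adjusted p = 0.0047), and the cargo lectin LMAN2, with one of -1.30 (adjusted p = 0.0048).

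For comparison, 2 complexes of proteins made and used in the cytosol were listed as well. The CCT chaperonin had 7 of 7 measured genes called higher in MVs, with a median log2 difference of 3.60 and a range from 2.44 to 5.25. The proteasome had 16 of 18, with a median of 2.82. CCT2 (2.56), CCT8 (3.60), PSMA2 (2.96) and PSMB1 (3.22) had the smallest p. The share of called genes was 69.4% over the ER genes described first and 35.6% over the other secretory genes. No difference between lists was tested.

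**Figure D5:**
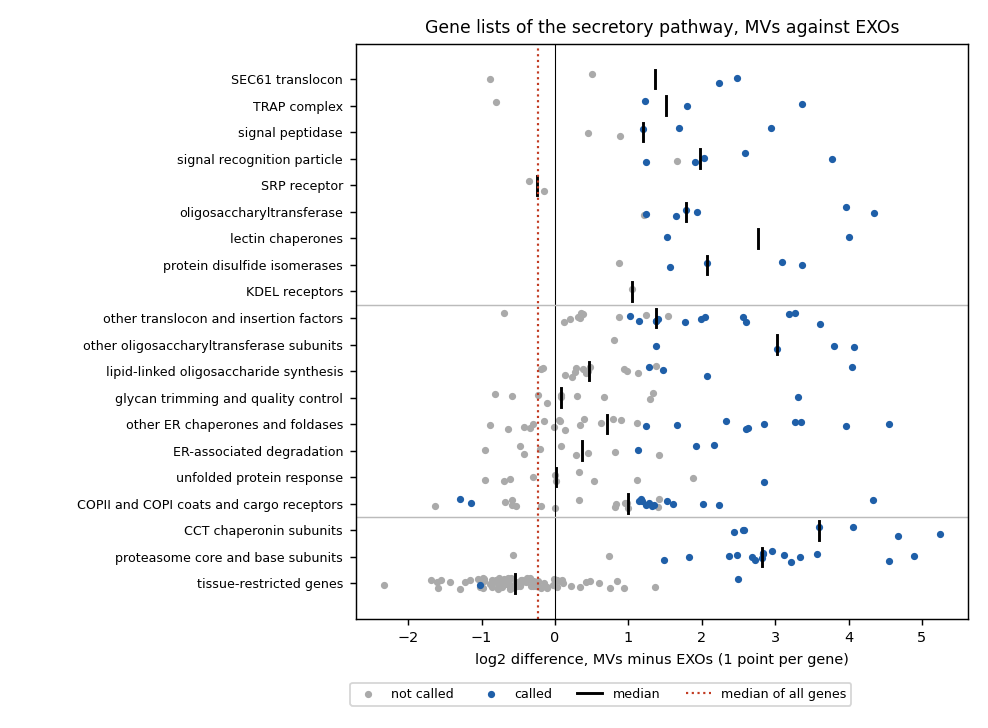
Log2 difference between MVs and EXOs (x axis) for every measured gene of the 9 groups of ER genes (top), the 8 lists of other secretory genes (middle), and the CCT chaperonin, the proteasome and the tissue-restricted genes (bottom). Each point is 1 gene, blue where called, black bars are list medians, and the dotted line is the median of all genes at -0.23; the median of the CCT list is 3.60 and that of the tissue-restricted genes -0.55.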

How the data were processed

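The authors deposited a MAS5 signal for each probe set and array, a linear intensity scaled so that every array has the same trimmed mean (500.0, with 2% left out at each end). The submitters' processing notes name MAS5, and its version is not given in the sources used here. RNA was isolated with the mirVana kit, amplified and labelled, so that the signal follows amplified RNA and not copies per vesicle. No array was left out.

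Signals under 32 were set to 32 and log2 was taken. Where a gene had several probe sets, the brightest by mean log2 signal in the arrays fitted stood for it. This gave 19,775 genes from the 41,091 probe sets that GEO's platform annotation pairs with 1 gene symbol (1,801 have several, and 11,721 no single name), and 62 control probe sets were left out. Groups were compared with limma 3.58.1 in R 4.3.3 (lmFit, eBayes with a trend), on 6 arrays for MVs against EXOs and on all 9 for hESEVs, with Benjamini-Hochberg adjustment over all genes. The same was done for all probe sets. Python 3.11.15 with pandas 2.3.3, numpy 2.4.6 and matplotlib 3.10.9 was used for promoters and plots. The gene-level fit of MVs against EXOs was tested on simulated data, and the other fits were not. The p-values measure the spread between 3 cultures of 1 cell line.

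All 36 genes were described. Of each list of other secretory genes the 3 genes with the smallest p and those higher in EXOs were named, with HSPA5 and HSP90B1. Fewer genes were named of the CCT and proteasome lists. Members and lists were chosen with earlier results of these data known. Alternatives were the methods' t-test (unpaired, 2-fold), no adjustment, other normalizations, floors and choices of probe set, a filter on dim genes, no trend, a replicate block, all 9 arrays in the first fit, and leaving out each array.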

Additional observations from a re-analysis of the deposited data

How the results depend on the processing

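Between MVs and EXOs, the members called higher in MVs numbered 16 with the methods' t-test after Benjamini-Hochberg adjustment, 15 without shared probe sets and 22 to 26 when 1 array was left out, and 1 was higher in EXOs with quantile normalization (SSR1) and 1 without shared probe sets (SEC63). The methods' t-test did not call CALR, DAD1, DDOST, ERP29, PDIA3, RPN1, SPCS3, SRP68 and STT3B. The members' median was 1.27 with quantile normalization, 1.91 with median centring and 1.24 with averaged or with unshared probe sets. Median centring moved the median of all genes from -0.23 to 0.0068 and the split of all calls from 2,293 and 548 to 2,770 and 193, and quantile normalization gave 850 higher in EXOs. That count was 1,280 in limma and 899 in the t-test without adjustment, 232 in the adjusted t-test and 320 to 472 without 1 array, and 1,304 genes were higher in MVs without shared probe sets. Among members called in the main fit or in the other setting, signs turned for CANX (-0.29), SEC63 (-1.15) and SSR3 (-0.17) without shared probe sets, where other probe sets stood for them. They also turned for PDIA3 without MVs replicate 3 (-0.46 to 2.34 when 1 array was left out). Of the probe sets, 0 were higher in EXOs with median centring, 2 with a floor of 1, 4 without adjustment and 0 to 1 without 1 array.

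Between hESEVs and MVs, the members higher in MVs numbered 5 with quantile normalization, 10 with averaged and 9 with unshared probe sets, with 1 (SEC63) higher in hESEVs in the last. Their median was -0.57 with quantile normalization, -1.35 with median centring, -1.24 with the spike-in shift, -0.83 with averaged and -0.81 with unshared probe sets, and -1.16 to -0.99 without 1 array. Among members called in either setting, signs turned for SSR3 (0.0093) with averaged probe sets, and for CALR (0.091), CANX (0.19), SEC63 (1.42) and SSR3 (0.69) with unshared ones. All genes higher in hESEVs and in MVs, 308 and 1,417, became 256 and 602 with quantile normalization, 104 and 1,904 with median centring, and 172 and 1,622 with the spike-in shift. Those higher in MVs were 895 with averaged and 722 with unshared probe sets. Those higher in hESEVs were 926 in limma and 566 in the t-test without adjustment, 139 in the adjusted t-test and 172 to 351 without 1 array.

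Between hESEVs and EXOs, 1 member was called by the adjusted t-test and 5 with unshared probe sets. All genes higher in hESEVs, 648, became 1,113 without adjustment, 208 in the adjusted t-test and 272 with unshared probe sets. Those higher in EXOs, 34, became 342 in limma and 181 in the t-test without adjustment, 4 in the adjusted t-test, 126 with quantile normalization (beside 667 higher in hESEVs), 13 among genes above the median signal, 17 with unshared probe sets and 17 to 39 without 1 array.

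Deviations of arrays with the same replicate number correlated with r from -0.0143 to 0.0050, so that no shared replicate effect was seen. Arrays with different numbers gave r from -0.0133 to 0.0141. These values cannot decide whether arrays with the same number shared a culture, because a shared culture need not leave a correlation. The study describes the MVs and EXOs as released from 3 hESC cultures and does not say which arrays shared one. With a replicate block the members called were 26 between MVs and EXOs, 15 between hESEVs and MVs and 8 between hESEVs and EXOs, where 22 of all genes were higher in EXOs. With the block 0 member probe sets were higher in EXOs than in MVs. The cause of these changes was not tested, except where another probe set stood for a gene. Signals near the background level limit the size of the folds, and 3 arrays per group limit their precision.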
